A study of Homo sapiens with 10 samples.

Results

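Chromosome-end sites were those ZEB1 sites whose midpoint lay within 5 Mb of either end of chromosomes 1 to 22 in GRCh38. They numbered 6318 of the 52981 sites of the count table and lay on 39 arm ends. The short arms of chromosomes 13, 14, 15, 21 and 22 had none. The rule used position only and no measured value. The sites themselves are consensus peaks, so a site can be in the count table because of its signal in 1 condition. A filter on low counts left 5631 of the 6318 sites (89.1%) for testing, and the other 687 were too low to test.

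ZEB1 was profiled by CUT&RUN, in which an antibody directs a nuclease to cut and release DNA around a bound protein, in a human breast cancer line labelled MDA that lacks estrogen, progesterone and HER2 receptors. The 4 conditions were untreated cells (cell line label MDA_Parental, no time given) and cells kept in 300 nM eribulin (cell line label MDA_ERI) for 24, 48 or 72 h. The labels spell the drug Erubilin. Each condition had 2 libraries, and all exposures were compared with the same untreated control. Eribulin is an anticancer drug that blocks microtubule growth, and the series title names a return from a mesenchymal to an epithelial state as its subject.

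ZEB1 is a zinc-finger transcription factor that binds short DNA motifs called E-boxes and represses epithelial genes such as those of the miR-200 family. In this text E-box means only the form CAGGTG or its reverse complement CACCTG. Chromosome ends are rich in genes, in GC and in tandem repeats, including the macrosatellite arrays next to the telomeres of 4q and 10q that carry copies of DUX4, a germline transcription factor. They also hold blocks of sequence that are shared between several chromosomes, so a short read from such a block can match more than 1 place. How reads with several matches were handled is not given in the sources used here.

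The 2 libraries of each condition differed by less than sampling noise. Over chromosome-end sites the chi-square per degree of freedom between them was 0.808 for the control pair, 0.940 for the 24 h pair, 0.892 for the 48 h pair and 0.943 for the 72 h pair, where counting alone gives about 1. Each condition was therefore counted as 1 sample. Every p-value below compares libraries and not conditions, and every interval covers counting error only. Over all sites together the control libraries held 3561455 and 3146228 counts and the 24 h libraries 1886419 and 1799143. The 48 h libraries held 1346179 and 1380070, and the 72 h libraries 1207987 and 1130706. Depth was thus highest in control and lowest at 72 h, and cannot be told apart from condition.

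The promoter sequences that the results refer back to are shown here, each as the 250 bases before a RefSeq start (GRCh38.p14), 5′ to 3′ on the strand of the gene. They were chosen to show the tandem repeats and E-boxes under some chromosome-end sites. BHLHE40 shows a strong promoter site without a tandem repeat or an E-box of the form CAGGTG or CACCTG. Capitals mark the E-box in DYNC2I1, ZNF57 and CYSRT1 and the first repeat unit in SPATC1L and LINC01596.
DYNC2I1: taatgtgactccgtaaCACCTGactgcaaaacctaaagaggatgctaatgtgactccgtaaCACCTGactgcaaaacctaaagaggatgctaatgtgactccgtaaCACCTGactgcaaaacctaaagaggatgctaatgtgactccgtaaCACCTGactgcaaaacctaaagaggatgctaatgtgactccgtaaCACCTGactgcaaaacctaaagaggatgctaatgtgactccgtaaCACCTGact
ZNF57: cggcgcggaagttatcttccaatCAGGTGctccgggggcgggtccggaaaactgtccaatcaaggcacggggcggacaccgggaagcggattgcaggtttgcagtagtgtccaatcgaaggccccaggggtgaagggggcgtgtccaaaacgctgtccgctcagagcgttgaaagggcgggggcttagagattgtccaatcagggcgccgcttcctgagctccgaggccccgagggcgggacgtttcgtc
CYSRT1: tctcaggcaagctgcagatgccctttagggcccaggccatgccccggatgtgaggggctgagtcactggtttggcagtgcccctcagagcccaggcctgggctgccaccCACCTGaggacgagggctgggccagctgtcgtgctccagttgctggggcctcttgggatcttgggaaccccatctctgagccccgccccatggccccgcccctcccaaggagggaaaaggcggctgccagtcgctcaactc
SPATC1L: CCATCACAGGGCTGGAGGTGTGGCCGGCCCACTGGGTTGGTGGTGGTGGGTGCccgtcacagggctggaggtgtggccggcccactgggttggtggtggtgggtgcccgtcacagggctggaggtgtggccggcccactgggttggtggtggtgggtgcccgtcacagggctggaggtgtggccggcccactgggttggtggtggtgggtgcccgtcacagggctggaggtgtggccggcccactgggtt
LINC01596: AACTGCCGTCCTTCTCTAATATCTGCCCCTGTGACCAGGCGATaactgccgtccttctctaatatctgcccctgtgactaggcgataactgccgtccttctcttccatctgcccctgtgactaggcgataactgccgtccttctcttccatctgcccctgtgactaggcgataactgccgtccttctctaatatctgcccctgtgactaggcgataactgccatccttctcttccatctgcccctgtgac
BHLHE40: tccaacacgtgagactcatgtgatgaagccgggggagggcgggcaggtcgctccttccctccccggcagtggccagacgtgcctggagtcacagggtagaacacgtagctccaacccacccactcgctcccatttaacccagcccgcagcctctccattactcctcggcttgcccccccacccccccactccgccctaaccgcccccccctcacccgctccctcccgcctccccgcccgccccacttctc
The windows are chr7:158838995-158839244 for DYNC2I1, chr19:2900678-2900927 for ZNF57, chr9:137224924-137225173 for CYSRT1, chr4:189881265-189881514 for LINC01596 and chr3:4979187-4979436 for BHLHE40, all on the plus strand. The SPATC1L window is chr21:46184460-46184709 on the minus strand. The DYNC2I1 window held 6 E-boxes and is a tandem repeat of 45 bases. The ZNF57 and CYSRT1 windows held 1 each. The SPATC1L and LINC01596 windows are repeats of 53 and 43 bases in which the motif was not found.

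Chromosome-end sites took a larger share of ZEB1 counts at 48 and 72 h than in control. The 2 control libraries placed 11.04% and 11.02% of their site counts in chromosome-end sites, and the 24 h libraries 10.81% and 10.76%. The 48 h libraries placed 14.39% and 14.45% there, and the 72 h libraries 13.56% and 13.43%. The 48 and 72 h libraries lay above all control and 24 h libraries with no overlap, and the 48 h pair lay above the 72 h pair. Exact Clopper-Pearson intervals (95%) of the pooled shares were 11.003 to 11.051% for control, 10.76 to 10.82% for 24 h, 14.37 to 14.46% for 48 h and 13.45 to 13.54% for 72 h. A share of this kind needs no scaling between libraries. Chromosome-end sites made up 11.9% of all sites and 12.6% of the bases in sites.

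**Figure D1:**
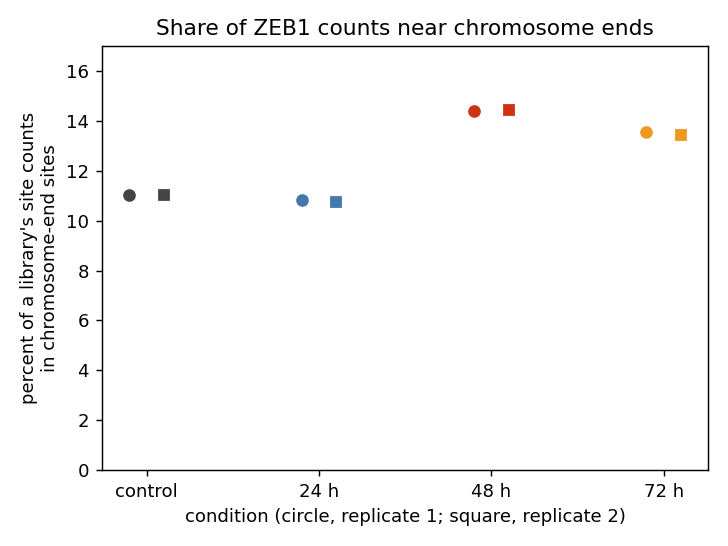
Percent of each library's counts in consensus sites that fell in chromosome-end sites (vertical axis) for the 8 ZEB1 libraries by condition, with 95% exact binomial intervals. The 48 h libraries stood at 14.39% and 14.45%, against 11.04% and 11.02% in control.

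At single sites, 1401 chromosome-end sites (24.9%) rose and 266 (4.72%) fell at 48 h against control, by edgeR's quasi-likelihood test at an adjusted p under 0.05 and a change of at least 2-fold. Over all 46436 tested sites 10.5% were called higher and 7.55% lower in that comparison. At 72 h 1380 chromosome-end sites (24.5%) rose and 292 fell, beside 12.2% higher and 8.55% lower over all tested sites. At 24 h the balance was near even, with 747 sites (13.3%) higher and 775 (13.8%) lower, beside 14.8% and 13.5% over all tested sites. The direct comparison of 48 h with 24 h called 1486 chromosome-end sites (26.4%) higher and 185 lower, beside 9.95% and 7.03% over all tested sites.

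Chromosome-end sites had median log2 fold changes of 0.00, 0.19 and 0.25 after 24, 48 and 72 h. That of all other sites was 0.02, -0.03 and -0.03. The upper tail differed more than the middle. At 48 h, 735 chromosome-end sites (13.1%) had a log2 fold change of 2.5 or more, against 657 of 40805 other sites (1.61%). At 24 h the same held for 50 chromosome-end sites (0.888%) and 566 other sites (1.39%). The 90th percentile at 48 h was 2.87 for chromosome-end sites and 0.96 for other sites.

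These fold changes are relative to the typical site. With libraries scaled to the background level recovered from the peak lists, the median over all tested sites was -0.91, -1.42 and -1.50 at the 3 exposure times. Under that scaling 773 chromosome-end sites (13.7%) were higher and 3376 (59.95%) lower at 48 h, beside 3.14% higher and 72.7% lower over all tested sites. After 72 h 308 (5.47%) were higher and 3367 (59.8%) lower, beside 1.63% and 73.2%. After 24 h 120 (2.13%) were higher and 2558 (45.4%) lower, beside 3.36% and 45.7%. For 48 h against 24 h it gave 1000 (17.8%) higher and 809 (14.4%) lower, beside 4.78% and 23.6%. The median of chromosome-end sites exceeded that of other sites by 0.22 at 48 h under either scaling, since a scaling factor moves both alike.

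**Figure D2:**
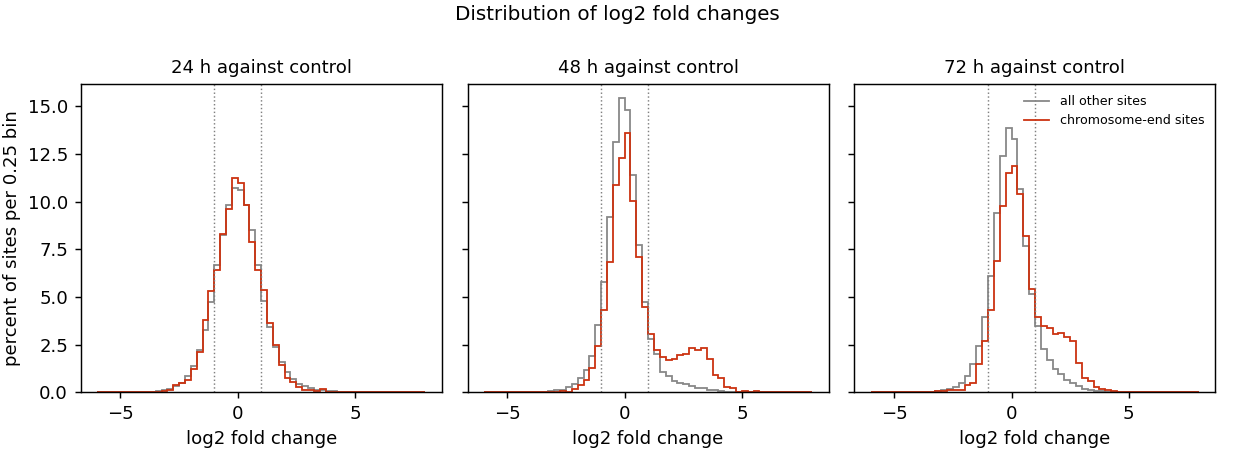
Percent of sites per bin (vertical axis) by log2 fold change against control (horizontal axis) at 24, 48 and 72 h, for chromosome-end sites and all other sites. At 48 h the line of chromosome-end sites has a second rise on the right, where 735 sites stood at 2.5 or more; at 24 h it has none.

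The gain was graded by distance from the end. At 48 h 32.6% of the 1321 tested sites in the first Mb were called higher, 29.8% of those at 1 to 2 Mb and 28.4% of those at 2 to 3 Mb. The share was 16.5% at 3 to 4 Mb and 12.8% at 4 to 5 Mb. Beyond the limit it was 11.9% at 5 to 7 Mb, 9.84% at 7 to 10 Mb and 8.20% past 20 Mb. Median log2 fold changes at 48 h ran from 0.37 in the first Mb to 0.02 at 4 to 5 Mb. Most of the gain thus lay well inside the 5 Mb limit. In the 50 kb inside it the median at 48 h was -0.05 over 52 tested sites, and in the 50 kb outside it 0.09 over 52.

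At 24 h the first Mb had a median of 0.13 and the fifth -0.13. The outer 0.5 Mb, a split chosen after the values were seen, stood at 0.36 with 151 of 576 sites (26.2%) higher at 24 h. The next 0.5 Mb stood at -0.03 with 81 of 745 (10.9%). At 72 h the medians were 0.45, 0.40, 0.29, 0.11 and -0.03 from the first to the fifth Mb.

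**Figure D3:**
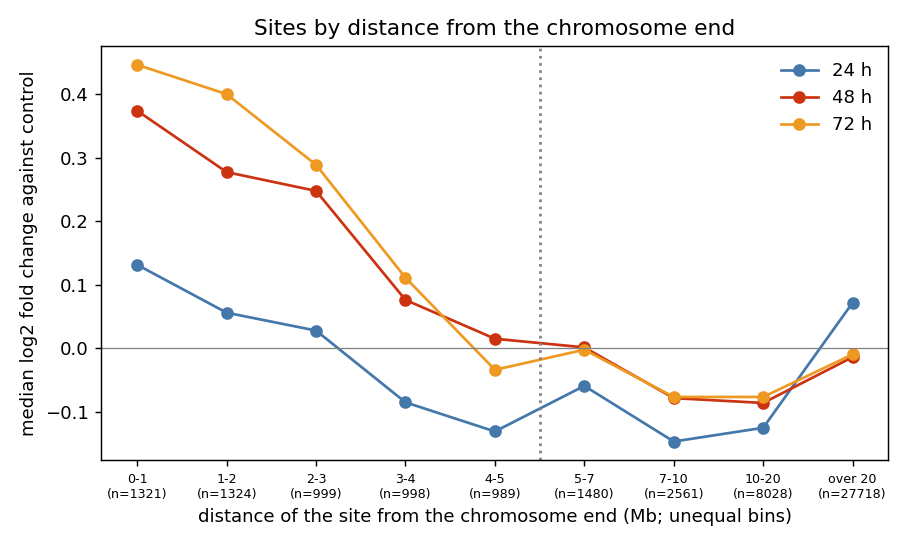
Median log2 fold change against control (vertical axis) of tested sites by distance from the chromosome end in Mb (horizontal axis, unequal bins) at 24, 48 and 72 h, with the 5 Mb limit marked. The 48 h line falls from 0.37 in the first Mb to 0.02 in the last bin inside the limit.

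The 39 arm ends differed widely. At 48 h 34 of 39 had a median above that of all other sites, against 22 of 39 at 24 h and 34 of 39 at 72 h. The share of sites called higher at 48 h ran from 7.14% to 62.5% and was above the 8.51% of other sites on 38 of 39 arm ends. The 17 short-arm ends had a median of 0.14 and the 22 long-arm ends 0.23 at 48 h. Leaving out any 1 arm end kept the difference between chromosome-end and other medians between 0.21 and 0.24 at 48 h. Without the 10 arm ends with the highest share called, chosen after the values were seen, 932 of 4619 sites (20.2%) were higher at 48 h.

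The 4 highest arm ends at 48 h were 2p, 5p, 10q and 7q. On 2p the median was 1.89 and 35 of 56 tested sites rose. On 5p it was 1.43 with 65 sites (58.6%), on 10q 1.35 with 52 of 99, and on 7q 1.22 with 73 of 137. The order of these 4 was not tested. The 4 lowest were 3p, 21q, 10p and 2q, with medians of -0.62, -0.27, -0.13 and -0.07. On 3p 2 of 28 sites rose and 6 fell. On 21q 34 of 229 sites rose at 48 h and 29 fell.

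The share of counts weighs strong sites more and gave a different order. The 4q end went from 0.129% of site counts in control to 0.534% at 48 h, the 1p end from 0.304% to 0.966%, the 10q end from 0.144% to 0.412% and the 18p end from 0.257% to 0.673%. The 18p end had a median of only 0.11, with 10 of 73 sites higher. The 3p end went from 0.133% to 0.075%. At 24 h the highest median was that of 15q, at 0.85 with 25 of 60 sites higher, and the lowest that of 21q, at -0.73 with 10 of 229.

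**Figure D4:**
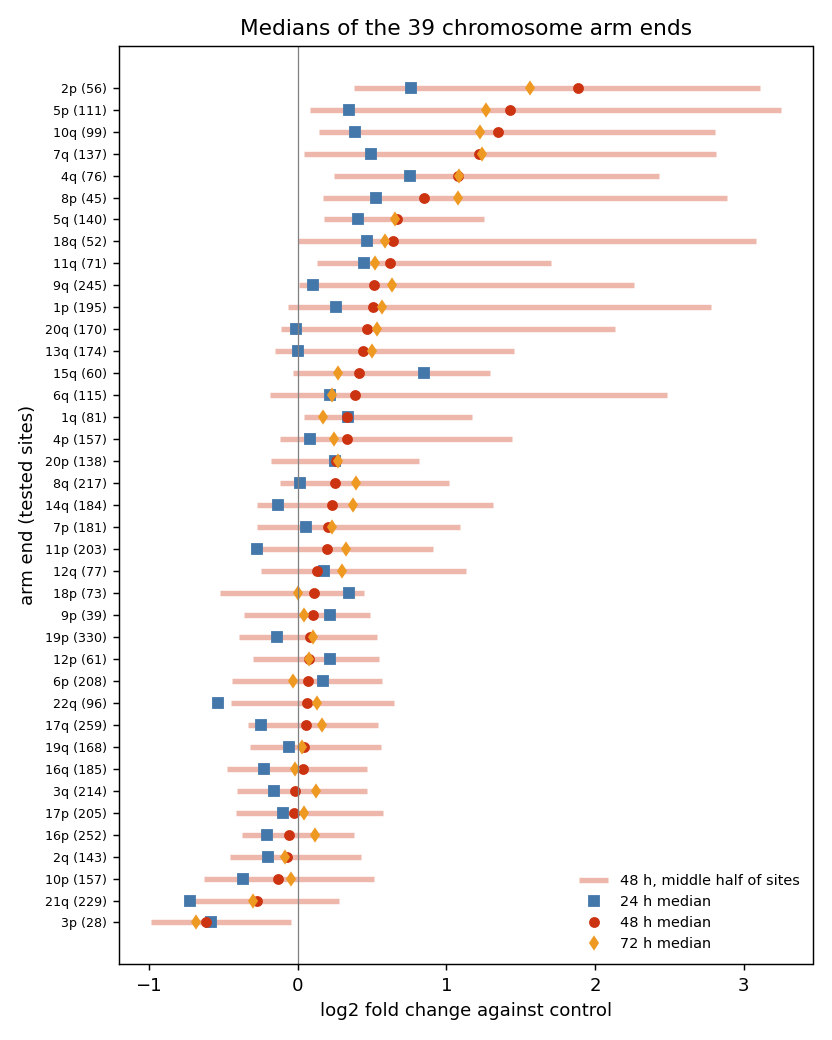
Median log2 fold change against control (horizontal axis) of the tested sites of each of the 39 arm ends (vertical axis) at 24, 48 and 72 h, ordered by the 48 h median, with bars for the interquartile range at 48 h. The 2p end is highest at 1.89 and the 3p end lowest at -0.62.

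The sites called higher at 48 h were chosen by their change from control, so their levels are a description. Their median level was 2.93 CPM (counts relative to library size, scaled by edgeR's TMM and pooled over the libraries of a condition) in untreated cells, and 5.26, 15.7 and 11.2 after 24, 48 and 72 h. Chromosome-end sites not higher at 48 h stood at 14.96, 13.4, 14.5 and 15.2 CPM. Of the risen chromosome-end sites 58 of 1401 (4.14%) overlapped a RefSeq promoter window, against 985 of 4230 (23.3%) of those not called higher. More of them lay inside genes and over 1 kb from a gene end (55.0% against 41.2%). They were also narrower, at a median of 207 against 283 bp. Other sites called higher at 48 h likewise had low control levels (median 3.86 CPM), few promoters (7.40%) and a small width (183 bp), with 44.6% inside genes.

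Gene density, count level and site width were set side by side with position, within 3 equal groups of all tested sites by each. At 48 h the share of chromosome-end and other sites called higher was 22.5% and 6.83% in the group with most genes nearby, and 32.96% and 10.1% in the group with fewest. It was 42.6% and 14.7% in the group with the lowest counts, and 12.3% and 3.50% in the group with the highest. Chromosome-end sites had the larger share in all 9 such groups. Within 1 kb of a gene end the shares were 13.01% and 5.71%, and inside genes 30.7% and 8.61%.

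The deposited peak lists, made per condition by the authors' peak caller, gave counts of peaks in place of reads. They come from the same data, so they are not independent of the counts above. Peaks within 5 Mb of an end made up 5016 of 46483 (10.8%) in the control list, 3413 of 33466 (10.2%) in the 24 h list, 3003 of 21816 (13.8%) in the 48 h list and 2213 of 17941 (12.3%) in the 72 h list. Of all 6318 chromosome-end sites, including those too low to test, 856 (13.5%) had a peak at 48 h and none in control, against 1370 of 46663 other sites (2.94%). The 48 h list alone had a peak at 671 chromosome-end sites (10.6%) and 959 other sites (2.06%). The local background under the peaks also differed between lists. In units of the floor of each list, its median over chromosome-end peaks was 2.90 for control, 2.26 for 24 h, 2.95 for 48 h and 2.79 for 72 h, and over other peaks 2.45, 2.00, 2.18 and 2.37. Its part in the result was not tested.

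The block with most risen sites was TTC34 near the end of 1p, a gene named for its tetratricopeptide repeats. All 37 tested sites inside it, between positions 2652180 and 2777195 of chromosome 1, rose at 48 h. Their log2 fold changes ran from 3.07 to 4.43, with a median of 3.49. Neighbouring sites that move alike describe 1 block and are not 37 independent results. The IgG libraries were not analysed, so how far the signal of the block depends on ZEB1 was not tested. Their summed level was 625 and 642 CPM in the control libraries, 1196 and 1194 in the 24 h pair, 7183 and 7148 in the 48 h pair and 3591 and 3615 in the 72 h pair. The 4 conditions did not overlap, and 72 h lay between 24 and 48 h. The site with the largest rise, at positions 2677343 to 2677494, stood at 3.19 and 2.97 CPM in the control pair, 13.3 and 13.5 in the 24 h pair, 65.7 and 70.2 in the 48 h pair and 24.2 and 33.3 in the 72 h pair. At 24 h 11 of the 37 sites passed, and at 72 h all 37.

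PTPRN2 near the end of 7q, which encodes a phosphatase-like membrane protein of secretory granules, had 34 of 35 tested sites higher at 48 h, with a median log2 fold change of 3.25 and a range of -0.15 to 5.16. The sum over its sites was 158 and 154 CPM in control, 319 and 333 in the 24 h pair, 1231 and 1251 in the 48 h pair and 696 and 627 in the 72 h pair. As in TTC34, the sum was highest at 48 h and the conditions did not overlap.

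Other genes with most of their sites higher at 48 h were SMOC2 on 6q, a matrix protein gene (7 of 7, median 3.34), and ADARB2 on 10p, a brain relative of the RNA-editing enzymes (6 of 6, median 3.19). DLGAP2 on 8p, which encodes a synaptic scaffold protein, had 8 of 9 at a median of 3.68. RPH3AL on 17p, an effector of vesicle release, had 10 of 11 at a median of 2.09, and CDH4 on 20q, a cadherin gene, 6 of 7 at 2.24. These genes were picked by their number of called sites, so the counts describe them and test nothing. Of the 1401 risen sites 804 (57.4%) lay inside a protein-coding or microRNA gene. They were spread over 478 of the 1253 such genes that held a tested chromosome-end site. Unlike the 55.0% above, this includes sites within 1 kb of a gene end. The same share over all tested chromosome-end sites is not given here, so 57.4% cannot be read as high or low.

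A different time course was seen at strong sites among the outermost of 4q, 10q and 18p. The chromosome-end site with the highest level in control, chr18:107700-109403, 3705 bp from MIR8078, stood at 729.8 and 793 CPM in the control pair, 1417 and 1439 in the 24 h pair, 3988 and 3778 in the 48 h pair and 4408 and 4260 in the 72 h pair. Its log2 fold changes were 0.91, 2.35 and 2.51, the first not called. The site over DUX4 on 4q, chr4:190177608-190180006, stood at 637 and 629 CPM in the control pair, 1271 and 1312 in the 24 h pair, 3709 and 3590 in the 48 h pair and 4056 and 3766 in the 72 h pair. Its log2 fold changes were 1.03, 2.53 and 2.63, all called. In both, every exposed library lay above both control libraries, and the pooled level at 72 h was not below that at 48 h.

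A site on 10q, chr10:133688082-133688927, 61709 bp from FRG2B, stood at 226 and 245 CPM in the control pair, 492 and 458 in the 24 h pair, 1305 and 1224 in the 48 h pair and 1469 and 1318 in the 72 h pair. FRG2B belongs to a gene family next to the macrosatellite arrays of 4q and 10q. The arrays of these arms are near-identical copies, so how the reads divide between 4q and 10q is uncertain.

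Within the last 300 kb, a limit chosen after the values were seen, 9 of 10 tested sites of 4q, 17 of 18 of 10q and 7 of 9 of 18p rose at 48 h. Their summed levels were 794 and 790.2 CPM in control and 4527 and 4347 at 48 h on 4q. On 10q they were 401 and 408 and 2211 and 2173, and on 18p 1050 and 1125 and 5746 and 5507. At 72 h the sums were 4757 and 4434, 2359 and 2131 and 6264 and 5913, near those at 48 h. A sum follows its strongest sites. From 48 to 72 h the median log2 fold change went from 2.14 to 1.82 on 4q and from 2.37 to 1.95 on 10q. On 18p it went from 2.44 to 2.51. At 72 h 8, 17 and 7 of the sites were called higher. With these 3 blocks and the sites of TTC34 and PTPRN2 left out, 1297 of 5522 chromosome-end sites (23.5%) were higher at 48 h.

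**Figure D5:**
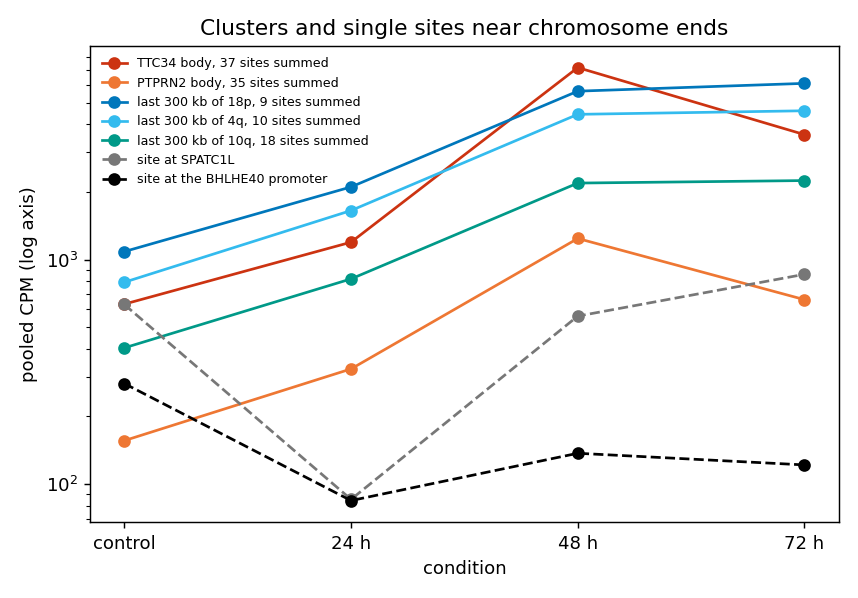
Pooled CPM (vertical axis, log scale) in control and at 24, 48 and 72 h for the summed sites of TTC34 and PTPRN2 and of the last 300 kb of 4q, 10q and 18p, and for the single sites at SPATC1L and the BHLHE40 promoter. On this TMM scale the TTC34 and PTPRN2 sums peak at 48 h, and the 4q, 10q and 18p sums stay up at 72 h. The SPATC1L site is low at 24 h only, relative to the typical site.

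Some chromosome-end sites rose at 24 h and were lower again later. Among sites with counts above the median, the largest rise at 24 h was on 20q, at chr20:63941895-63942366 inside UCKL1, a uridine kinase-like gene, 501 bp from MIR647. Its libraries stood at 2.896 and 1.32 CPM in the control pair, 52.3 and 56.03 in the 24 h pair, 13.1 and 8.31 in the 48 h pair and 2.596 and 5.55 in the 72 h pair. Only the 24 and 48 h levels were called higher, with log2 fold changes of 4.61 and 2.27. A site in GRIN1 on 9q, an NMDA receptor subunit gene, stood at 31.3 and 37.3 CPM in the control pair, 104 and 119 in the 24 h pair, 40.9 and 25.7 in the 48 h pair and 34.6 and 25.9 in the 72 h pair. Sites in IGF1R on 15q, a growth factor receptor gene, and SMYD3 on 1q, a methyltransferase gene, rose by 2.15 and 2.41 on the log2 scale at 24 h. A site in ZNF582 on 19q, a zinc-finger gene, was instead higher at every time, with log2 fold changes of 3.54, 3.23 and 3.92.

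Of the 5 largest falls at 24 h, 3 lay on 21q (SPATC1L, LSS and POFUT2), taken among sites with counts above the median. The SPATC1L site, chr21:46184432-46185209, which spans the 53-base repeat shown above, stood at 622 and 641 CPM in the control pair, 88.3 and 82.4 in the 24 h pair, 566 and 554 in the 48 h pair and 849 and 871 in the 72 h pair. Relative to the typical site it was low at 24 h only, with a log2 fold change of -2.88 and an adjusted p of 1.39e-141 (edgeR). Under the background scaling the typical site itself was lower at 48 and 72 h, so the return to control level holds for the TMM scale. The neighbouring site in LSS, which encodes lanosterol synthase of the cholesterol pathway, stood at 67.2 and 77.2 CPM in the control pair, 8.72 and 4.31 in the 24 h pair, 34.8 and 32.5 in the 48 h pair and 45.9 and 35.2 in the 72 h pair. A site 20655 bp from POFUT2, a protein fucosyltransferase gene, had log2 fold changes of -3.19, -1.76 and -2.09. On 14q a site 23735 bp from TNFAIP2, a TNF-induced gene, had -2.80, -1.36 and -1.79, and like the POFUT2 site was called lower at all 3 times.

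BHLHE40 on 3p, which encodes a transcriptional repressor of the circadian and hypoxia responses, lost signal at every time. The site over its promoter, shown above, stood at 271 and 291 CPM in the control pair, 85.2 and 83.5 in the 24 h pair, 151 and 123 in the 48 h pair and 126 and 117 in the 72 h pair. A second site, 2092 bp from the gene, stood at 79.1 and 67.9 CPM in the control pair, 13.9 and 9.698 in the 24 h pair, 16.99 and 15.9 in the 48 h pair and 12.1 and 13.9 in the 72 h pair. No exposed library reached the control range at either site, though sites named for a fall were required to show this at that time. At 72 h the largest falls also included a site 350 bp from TFF2, a secreted trefoil peptide gene of mucous epithelia, which stood at 49.2 and 46.8 CPM in the control pair, 20.5 and 32.9 in the 24 h pair, 16.99 and 31.7 in the 48 h pair and 12.1 and 6.48 in the 72 h pair. Another was 54040 bp from TFRC, the transferrin receptor gene, at 28.7 and 26.7 CPM in the control pair, 4.62 and 4.31 in the 24 h pair, 13.1 and 9.06 in the 48 h pair and 6.92 and 4.63 in the 72 h pair.

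The genes of miR-200b, miR-200a and miR-429, which target ZEB1 mRNA and are themselves repressed by ZEB1, lie within the 1p end. Their mature sequences from RefSeq are shown because miR-200b and miR-429 share a seed, given in capitals (bases 2 to 8), and that of miR-200a differs from it.
hsa-miR-200b-3p: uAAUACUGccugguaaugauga
hsa-miR-200a-3p: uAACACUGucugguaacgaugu
hsa-miR-429: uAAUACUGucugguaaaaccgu
The site nearest to them, chr1:1164734-1165103, 2186 bp from MIR200B, stood at 13.3 and 11.9 CPM in the control pair, 12.3 and 13.5 in the 24 h pair, 18.5 and 15.1 in the 48 h pair and 18.2 and 20.4 in the 72 h pair. It was not called at any time, with log2 fold changes of 0.03, 0.41 and 0.60. A second site, 9514 bp from MIR200B, was called lower at 48 h (log2 -1.20, adjusted p 0.018) and not at 24 or 72 h. Its level then was 2.32 and 6.04 CPM, so the call rests on few counts. On the other side of the genes, a site 2095 bp from TTLL10, a tubulin glycylase family gene, rose from 6.95 and 6.596 CPM to 32.4 and 30.96 at 48 h.

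Of the 6 gene lists, neuronal and ion channel genes had the largest share of risen sites. At 48 h 25 of the 53 sites linked to them (within 100 kb) rose (47.2%) and 1 fell, with a median of 0.89, beside 24.9% of all chromosome-end sites. A site in KCNT1 on 9q, a sodium-activated potassium channel gene, stood at 2.61 and 3.298 CPM in the control pair, 11.8 and 8.62 in the 24 h pair, 57.9 and 50.6 in the 48 h pair and 22.5 and 24.99 in the 72 h pair. A site 3163 bp from RIMBP2 on 12q, which organises presynaptic release sites, went from 4.63 and 4.29 to 54.8 and 74.004 CPM at 48 h. PTPRN2, DLGAP2, ADARB2 and GRIN1 are on this list. It thus overlaps the genes described above, and its share is not independent of them. Of 69 sites linked to zinc-finger genes, 9 rose (13.04%) at 48 h, with a median of 0.17, beside the same 24.9%.

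Of 79 sites linked to genes of the ZEB1 axis and of epithelial junctions or matrix, 23 rose (29.1%) and 3 fell at 48 h, with a median of 0.33, near the 24.9% higher and 4.72% lower of all chromosome-end sites. A site in PKP3 on 11p, a desmosomal plakophilin gene, stood at 33.6 and 33.97 CPM in the control pair, 28.2 and 39.3 in the 24 h pair, 132 and 131 in the 48 h pair and 58.8 and 61.1 in the 72 h pair. A site 10730 bp from COL18A1 on 21q, inside SLC19A1, rose from 5.21 and 3.63 to 50.2 and 59.7 CPM at 48 h. Another inside COL18A1, a basement membrane collagen gene, fell from 64.9 and 70.6 to 24.6 and 17.8 CPM at 24 h. In CDH15 on 16q, a muscle cadherin gene, a site stood at 7.24 and 7.59 CPM in the control pair, 38.998 and 45.8 in the 24 h pair, 20.9 and 16.6 in the 48 h pair and 8.65 and 7.404 in the 72 h pair. Its call at 48 h (log2 1.33) turned to -0.09 under the background scaling.

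Regulators of EMT, development and growth had 21 of 79 sites higher (26.6%) and 5 lower at 48 h, with a median of 0.01, again near the 24.9% and 4.72% of all chromosome-end sites. A site 38485 bp from SOX8 on 16p, a neural crest transcription factor gene, stood at 26.9 and 27.7 CPM in the control pair, 31.3 and 33.4 in the 24 h pair, 173 and 177 in the 48 h pair and 132 and 149.9 in the 72 h pair. A site 4214 bp from GATA5 on 20q, a cardiac and endodermal transcription factor gene, rose from 2.61 and 2.31 to 29.4 and 39.3 CPM at 48 h. In AXIN1, a scaffold of the Wnt pathway, and TRAF2, an adaptor of TNF receptors, sites fell by 1.78 and 1.49 on the log2 scale at 24 h.

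Microtubule genes, listed because the drug acts on tubulin, had 14 of 38 sites higher (36.8%) and 4 lower at 48 h, with a median of 0.22, beside 24.9% and 4.72% of all chromosome-end sites. A site 44784 bp from KIF26A on 14q, a kinesin family gene, stood at 2.896 and 3.298 CPM in the control pair, 6.67 and 8.08 in the 24 h pair, 55.6 and 57.4 in the 48 h pair and 32.02 and 35.2 in the 72 h pair. A site inside CEP72 on 5p, 9997 bp from TPPP, a tubulin polymerisation promoting gene, went from 10.7 and 12.5 to 119.7 and 133 CPM at 48 h. In TTLL8 on 22q, a tubulin glycylase gene, a site fell at every time, by 1.89, 1.47 and 1.24 on the log2 scale.

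Of 29 sites linked to imprinted genes of 11p15, 10 fell and 2 rose at 24 h, and most were not called. Over the whole 11p end 46 of 203 sites fell at 24 h, and over all chromosome-end sites 13.8% fell and 13.3% rose. At 48 h 4 of the 29 rose (13.8%) and 2 fell, beside 24.9% and 4.72% of all chromosome-end sites. A site 35818 bp from IGF2, a growth factor gene, stood at 124 and 119.7 CPM in the control pair, 21.04 and 20.5 in the 24 h pair, 50.98 and 63.4 in the 48 h pair and 61.4 and 70.3 in the 72 h pair. A second, 31426 bp from IGF2, fell at all 3 times, by 2.01, 1.79 and 1.66 on the log2 scale. At the start of INS, the insulin gene, a site rose from 3.19 and 3.63 CPM to 16.99 and 21.1 at 48 h.

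E-boxes were counted in RefSeq windows of 250 bases before and 50 after the start that the sites overlap, by a search for CAGGTG or CACCTG, which covers both strands. Of all 35116 windows 20.6% held one, and of the 1458 windows under tested chromosome-end sites 19.6%. Among windows under chromosome-end sites lower at 24 h it was 41.9% of 74, and among those higher at 24 h 5.35% of 187. At 48 h it was 40.3% of 77 under higher sites and 26.7% of 30 under lower sites. Windows under other sites gave 40.5% (lower) and 7.91% (higher) at 24 h, and 10.9% and 30.7% at 48 h. Median GC content was 67.7% under chromosome-end sites lower at 24 h and 73.0% under those higher.

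Of the windows shown above, that of ZNF57 lay under a site that fell from 129 and 121 to 59.5 and 55.5 CPM at 24 h. That of CYSRT1 lay under one that rose from 13.9 and 16.5 to 43.3 and 43.04 CPM at 48 h. Both were chosen after the values were seen, by the highest counts among such promoters with an E-box. Promoters on chromosome 8 and those of genes with only a LOC symbol were left out of that choice.

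Tandem repeats were searched in the same windows, a step added after the values were seen. A window was counted as a repeat where at least 80% of its bases matched themselves after a shift of 10 to 100 bases. This held for 66 of all 35116 windows (0.188%), for 6 of 1458 under chromosome-end sites (0.412%) and for 3 of 10865 under other sites (0.0276%). Of the 77 windows under chromosome-end sites higher at 48 h it held for 4 (5.19%). The site at DYNC2I1 on 7q, a dynein gene of cilia, stood at 1.16 and 1.32 CPM in control and 5.41 and 6.796 at 48 h. The one at LINC01596 on 4q, a long non-coding RNA gene, stood at 4.92 and 9.56 CPM and 24.7 and 18.9. Both were called higher at 48 h, the first from few counts. The sequence of sites away from promoters was not analysed here.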

How the data were processed

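ZEB1 CUT&RUN libraries of the 4 conditions were analysed; the 2 IgG libraries of untreated cells were not. Per the submitters' processing notes, which give no role or order, the tools were MACS2 2.1.1, featureCounts, Bowtie2 2.2.6, deepTools, bedtools 2.30.0, cutadapt 2.4, bcl2fastq 2.20.0.422 and Picard, with hg38. The deposited count table holds whole-number counts per consensus site and library as the authors left them. The deposited peak lists, 1 per condition, hold each peak's fold enrichment and its −log10 p and −log10 q from the authors' peak caller. Whether counts are of reads or fragments is not given in the sources used here. Fragmentation by Tn5, which CUT&RUN does not use, is mentioned in the labels.

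From these, edgeR 4.0.16 in R 4.3.3 (filterByExpr, TMM, robust quasi-likelihood test, 1 fit over 8 libraries, Benjamini-Hochberg over 46436 sites) gave fold changes. The fitted coefficient of variation between libraries of a condition was 0.988%, which is the lower limit of the fit and not a measured spread. Background was recovered from fold and p of each peak, and its most frequent value in a list was taken as the floor. DESeq2 1.42.0, other scalings, filters, window sizes and left-out libraries were alternatives. The script was tested on simulated counts. Site shares have exact intervals (scipy 1.17.1).

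Sites were named by a rule: per exposure, the 10 largest rises and 5 largest falls among called sites above median counts; the 5 strongest in control; the 2 with most counts in each of the 4 highest arm ends; and the sites of least p in each gene list. The rises and falls were further limited to sites where all libraries of the exposure lay on the same side of both control libraries. That separation was thus fixed by the choice. Not all named sites are described. Genes are RefSeq protein-coding or microRNA genes within 100 kb. Members and lists were chosen with earlier results of these data known. Replicate numbers did not pair the libraries.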

Additional observations from a re-analysis of the deposited data

Results flagged for a closer look

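Many chromosome-end sites differed between the 24 and 48 h libraries, by a direct edgeR quasi-likelihood test of 48 h against 24 h. It called 1486 of 5631 sites (26.4%) higher at 48 h and 185 (3.29%) lower. Among other sites 7.68% were called higher and 7.55% lower. The 2 libraries of a condition count as 1 sample, so the test compares these libraries. Exposure time, time in culture and differences between single samples cannot be told apart here.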

How the results depend on the processing

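With the floor of the peak lists as scale, sites called higher and lower were 120 and 2558 after 24 h, 773 and 3376 after 48 h and 308 and 3367 after 72 h, and 809 were lower at 48 h than at 24 h. Over all tested sites 3.36% were higher and 45.7% lower, 3.14% and 72.7%, and 1.63% and 73.2% in the same order of times. Of the 5631 sites DESeq2 called 124 lower at 48 h, 168 at 72 h and 46 at 48 h against 24 h. Over all tested sites it called 3.55%, 4.35% and 1.57% lower. It called 500 (8.88%), 1183 (21.01%) and 1020 (18.1%) higher at 24, 48 and 72 h. Over all tested sites these shares were 10.8%, 7.25% and 8.05%. At 48 h against 24 h 1103 (19.6%) were higher, beside 6.12%. An assumed coefficient of variation of 0.2 left 169 lower at 48 h and 84 at 48 h against 24 h. Over all tested sites it left 5.00% and 3.18% lower. Within 2 Mb of an end, of 2645 tested sites, 410 (15.5%), 825 (31.2%) and 803 (30.4%) were higher at 24, 48 and 72 h. There 326 (12.3%), 84 (3.18%) and 100 (3.78%) were lower at these times. At 48 h against 24 h 814 (30.8%) were higher and 78 lower there. For other window sizes the shares over all tested sites are those of the main edgeR calls, given in Results. Within 10 Mb, of 9672 tested sites, 1228 (12.7%) were higher at 24 h. At 24, 48 and 72 h 1409 (14.6%), 632 (6.53%) and 688 (7.11%) were lower, and 358 at 48 h against 24 h. The median of chromosome-end minus other sites was 0.075, 0.353, 0.441 and 0.502 within 2 Mb (24, 48, 72 h, and 48 h against 24 h) and -0.085, 0.114, 0.148 and 0.29 within 10 Mb. Without the 10 highest arm ends, chosen after seeing the data, it was -0.086, 0.158, 0.198 and 0.364. Without the count filter it was 0.00404 at 24 h, against -0.017 with it, and 0.242 at 48 h; the cause was not tested.

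Leaving out 1 library gave median differences of -0.029 to -0.013 at 24 h, 0.237 to 0.265 at 48 h, 0.284 to 0.312 at 72 h and 0.409 to 0.426 for 48 h against 24 h, and a share of 13.4 to 13.6% at 72 h. The share of counts in control and at 24, 48 and 72 h was 4.78, 5.00, 7.16 and 6.77% within 2 Mb, and 22.04, 21.5, 26.3 and 23.9% within 10 Mb. It was 11.2, 11.01, 14.7 and 13.7% over autosomes alone, and 11.3, 10.9, 14.3 and 13.1% without the 1% of sites with most counts. With −log10 q of 5 or more, 10.5% of control, 12.5% of 48 h and 11.5% of 72 h peaks lay near ends. With every list cut to the length of the shortest it was 9.73% at 24 h and 12.7% at 48 h.

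With the replicate number as a block, 749 (13.3%), 1402 (24.9%) and 1373 (24.4%) sites were higher at 24, 48 and 72 h. For 48 h against 24 h it was 1483 (26.3%). Over all tested sites these shares were 14.9, 10.5, 12.2 and 9.95%. The replicate numbers do not pair the libraries. Of the named sites, under the floor scaling 47 of 162 calls were lost and 8 turned sign: CDH15, COL6A2, RXRA and CLPTM1L at 48 h (-0.087, -0.087, -0.115 and -0.223), and at 72 h 2 sites in LAMA5 (-0.334 and -0.243), EIPR1 (-0.236) and 1 site in PTPRN2 (-0.176). Depth limits sites of few counts, such as that at DYNC2I1.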

Other observations

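The ends of chromosome X were outside the rule, and differed from each other in their values. Within 5 Mb of the Xp end 24 of 85 tested sites (28.2%) were called higher at 48 h, and within 5 Mb of the Xq end 9 of 84 (10.7%). Elsewhere on X it was 72 of 818 (8.80%).

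Of 489 windows of 5 Mb along chromosomes 1 to 22, 39 were chromosome ends. By median log2 fold change at 48 h, 6 of the top 10 and 9 of the top 20 windows were ends. Among interior windows 2 had a median of 1 or more. One lay on chromosome 8 between 85.1 and 89.98 Mb, with 64 tested sites and medians of 1.05, 1.63 and 1.57 at 24, 48 and 72 h. The other lay on chromosome 15 between 20.01 and 23.4 Mb, with 27 tested sites and medians of 0.67, 1.01 and 1.17.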
